A study of Lynx rufus with 52 samples.

Results

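The 200 gene IDs whose blood transcript level differed most from animal to animal were described across 52 bobcat (Lynx rufus) whole blood samples. The samples came in 2 groups of 26, one in which anticoagulant rodenticides had been detected and one in which they had not, and the labels give no sex, age, health state or other treatment for either. Rodenticide detection is thus the one labelled difference. In all samples RNA came from 0.5 mL of blood, was extracted with a mouse blood kit and was cleared of globin RNA with a mouse kit. Libraries were sequenced in pools of 13 or 14, and the pool of a library is not labelled. The design text counts 26 positive animals but gives only a number of samples for the negative side, so p-values measure the spread between samples.

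The members were chosen by their spread alone. The 2 most abundant IDs were left out, counts were turned into CPM (counts per 1000000 of the remaining total), and 9166 of 21887 IDs had at least 1 CPM in all 52 libraries. Of these, 148 were left out because their level followed the share of the 2 most abundant IDs most closely. Another 6, set apart as shifted with rodenticide detection, were left out by ID. The 200 members are those of the remaining 9012 with the largest standard deviation (SD) of log2(CPM + 1). The SD of a member is therefore a description and not a result. The IDs are those of the domestic cat in Ensembl. None of the 21887 matched a gene in the bobcat gene table at hand (28854 genes, RefSeq assembly mLynRuf1.p), and the deposited tables do not pair IDs with names. No gene function, chromosome position or sequence is therefore given, the blood label was not checked against marker genes, and 4 IDs are named.

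Whole blood is a mixture of red cells, platelets, neutrophils, lymphocytes, monocytes and rarer cells, each with its own set of transcripts. The makeup of this mixture changes with infection, stress, age and season, and many defence genes can be switched on by a virus or a bacterium within hours, which makes blood of wild animals a variable tissue. In bulk samples such as these, fewer cells of a type and less RNA per cell cannot be told apart. Anticoagulant rodenticides block the recycling of vitamin K, a cofactor that the liver uses to finish several clotting factors.

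Library sizes ran from 3405189 to 22898827 counts for positive and from 4531997 to 20945470 for negative libraries. The 2 most abundant IDs took a median of 5.82% of counts in positive libraries (1.84% to 19.8%) and 8.33% in negative ones (0.563% to 56.2%), and in 3 of the 52 libraries they took over 20%. Gene number, meaning how many IDs a library would show if cut to 2000000 counts, had a median of 12981 in positive (12451 to 13239) and 12699 in negative libraries (12134 to 13363).

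The members spanned a wide range of levels. Their SD ran from 0.88 to 1.91 on the log2(CPM + 1) scale with a median of 0.99, against a median of 0.45 for the other 8812 eligible IDs. At the limit, the last 2 members had an SD of 0.8792 and 0.8790 and the first 2 IDs outside had 0.8772 and 0.8766. Within 0.02 of the limit lay 35 members and 40 IDs outside. An SD of at least 1 was found in 90 members and of at least 1.5 in 7. The highest library of a member exceeded its lowest by a median of 29.7-fold in CPM (11.6-fold to 521-fold), against a median of 4.88-fold for the other eligible IDs.

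**Figure D1:**
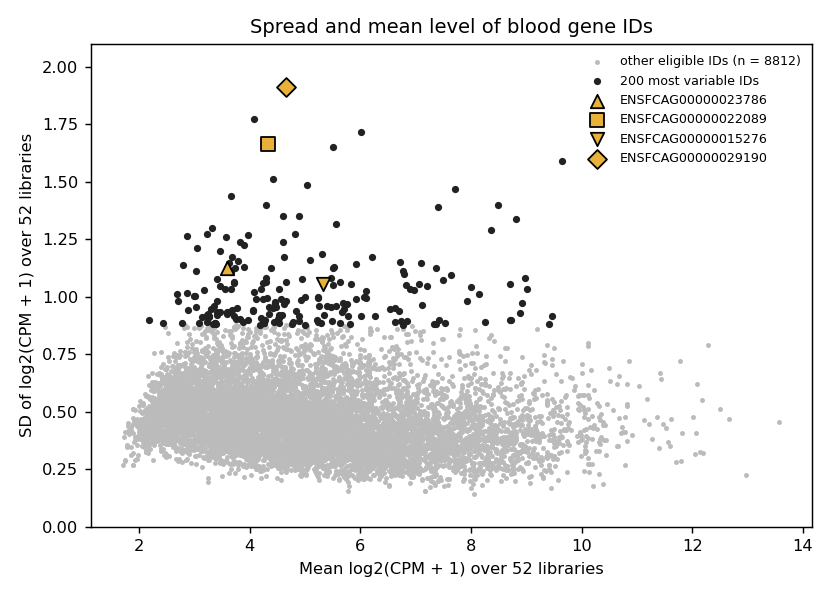
Mean log2(CPM + 1) over 52 libraries (horizontal) against its SD (vertical) for 9012 eligible IDs, with the 200 members in black, the others in grey and the 4 named IDs as yellow symbols. The members lie above an SD of 0.88 over nearly the whole range of levels.

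Counting error was a small part of this spread. The variance that Poisson counting alone would leave in log2(CPM + 1) was a median of 1.04% of a member's observed variance (0.0256% to 4.88%), against 4.1% in the other eligible IDs. The median count of a member over the libraries had a median of 268.2 over members, the lowest count of any member in any library was 3, and 41 members had under 10 counts in at least 1 library. The median read abundance of the members was 23.9 CPM (3.06 to 914), close to the 27.2 CPM of the other eligible IDs. These values are not per length and say nothing about the order of single genes.

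The deposited table also gives a mean length and a GC content for each ID, which the choice of members did not use. GC content had a median of 54.6% in the members (quartiles 47.1% and 59.9%) and 50.7% in the other eligible IDs (43.8% and 58.1%). A GC content of 55% or more was found in 47.0% of members and in 35.9% of the others. Mean length had a median of 187 bases in the members (quartiles 151 and 363) and 202.0 bases in the others (136.5 and 368). Its label does not say over what it is averaged. These differences in GC content and length were not tested.

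Most members varied by degrees, with no wide gap between sets of libraries. The choice required at least 1 CPM in all 52 libraries, so an ID absent from some libraries could not be a member. For each member, the largest gap between neighbouring libraries was taken with at least 5 libraries on each side. This gap was at least 1 log2 unit in 1 member and in 0 of the other eligible IDs, and its median over members was 0.29. The exception was ENSFCAG00000029190, which also had the largest SD of all (1.91). In 13 libraries it lay at or under 6.12 CPM, with a median of 1.73 CPM, and in the other 39 at or above 14.4 CPM, with a median of 54 CPM. The low libraries were 8 rodenticide-positive and 5 rodenticide-negative ones, and 5, 3 and 5 of them belonged to the levels A, B and C described below. The low values rested on at least 12 counts. The lowest, 1.05 CPM, lay just above the 1 CPM required of every library. No other member followed this ID with a Spearman's rho of 0.5 or more over the 52 libraries, and 11 of the eligible IDs did, the closest with 0.56.

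Leaving out the library farthest from a member's median, which always lowers an SD, left a median of 0.942 times the full value (lowest 0.771 times). When the 200 IDs were chosen again without any 1 library, 183 to 199 members were chosen again. These choices were made among the same 9012 eligible IDs, without repeating the filter. The farthest library lay below the member's median in 117 members and above it in 83. The extreme values were spread over the libraries: 42 of the 52 held the highest value of at least 1 member, and 42 held the lowest. Rodenticide-negative replicate 9 was at least 1 log2 unit away from the median in 113 members, lower in 97 and higher in 16. Rodenticide-negative replicate 8 was so in 112 members, lower in 81 and higher in 31. These 2 libraries had a low gene number (12134 and 12180), and the first gave 56.2% of its counts to the 2 most abundant IDs. Rodenticide-positive replicate 18 followed with 108 members, 71 of them higher. The least deviant library was rodenticide-positive replicate 14, with 24 members.

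Counted in this way, a rodenticide-positive library was off in a median of 63.5 members (24 to 108) and a rodenticide-negative one in 62 (25 to 113), so the 2 groups overlapped almost entirely. Across the 52 libraries, this number had a Spearman's rho of -0.083 with gene number, -0.24 with the total count and 0.09 with the share of the 2 most abundant IDs, all read from the same counts.

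Members moved together in blocks. Over 19900 pairs of members, Spearman's rho across the 52 libraries had a median of 0.048 and ran from -0.793 to 0.962. A rho of at least 0.5 was found in 10.6% of pairs and a rho of -0.5 or lower in 3.44%, against 16.6% and 2.14% of pairs among the other eligible IDs. Without gene names, near-identical copies that share reads could not be told from separate genes among these pairs. The first principal component held 27.4% of the members' variance, against 31.3% in the other eligible IDs. The next 2 components of the members held 8.99% and 8.34%.

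Grouping the members by rho (average linkage, joined at a mean rho of 0.5) gave 7 groups of at least 10, which took in 128 members. Another 28 members formed 8 smaller groups, and 44 had no partner. The groups come from the same values that chose the members, so they are described and not tested. A group's value in a library is the median over its IDs of the deviation of log2(CPM + 1) from each ID's own median.

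**Figure D2:**
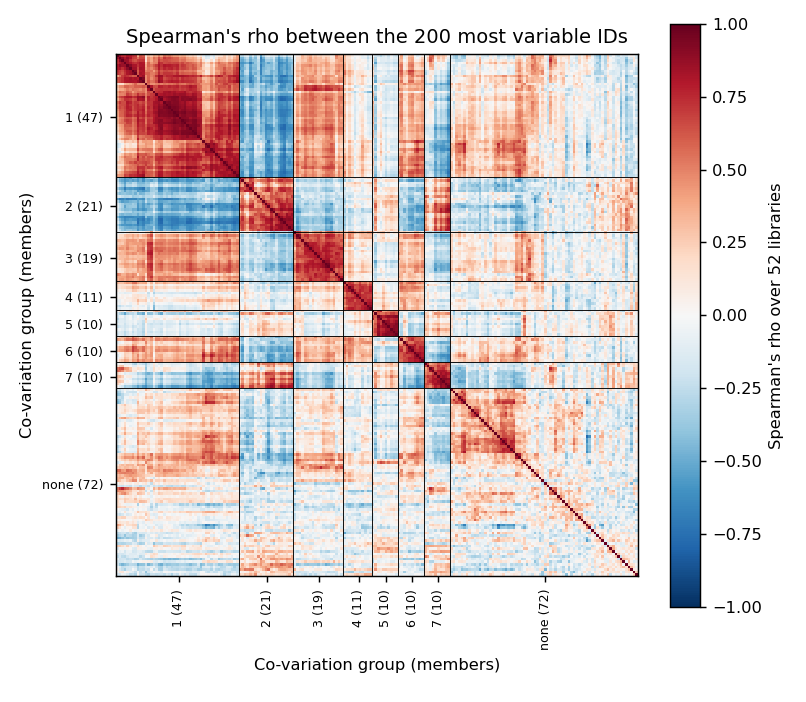
Spearman's rho over 52 libraries between all pairs of the 200 members, ordered by co-variation group with its number of members, on a scale from -1 (blue) to 1 (red). The 7 groups stand out as red blocks, group 1 and group 2 oppose each other, and the 72 members outside the groups show mostly weak relations.

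Group 1, with 47 IDs, was the largest, and its GC content (median 57.2%) was the highest of the 7. The median rho between its IDs was 0.678. Its value ran from -1.84 in rodenticide-negative replicate 1 to 1.44 in rodenticide-positive replicate 15. It followed gene number closely (Pearson's r = 0.92, Spearman's rho = 0.92 over 52 libraries, both read from the same counts). Its rho with the share of the 2 most abundant IDs was -0.166 and with the log2 total count 0.168. On the scale of TMM factors, which set the libraries level by the bulk of genes, the median rho within the group was 0.567, and the largest group of members found on that scale had 23 IDs.

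Group 2, with 21 IDs, ran the other way. Its value was -2.23 in rodenticide-positive replicate 4 and 1.66 in rodenticide-negative replicate 12, and its rho with the value of group 1 was -0.728. Its relation to gene number was inverse (r = -0.682, rho = -0.714). Group 7, with 10 IDs and the lowest GC content (median 47.3%), leaned to the side of group 2 (rho = 0.599). The value of group 7 ran from -2.29 in rodenticide-positive replicate 18 to 1.34 in rodenticide-negative replicate 12.

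Group 3, with 19 IDs, and group 6, with 10, leaned to the side of group 1 (rho = 0.595 and 0.501). Group 3 ran from -2.04 in rodenticide-positive replicate 3 to 2.5 in rodenticide-positive replicate 6, which was the highest library for 13 of its 19 IDs. Group 6 ran from -2.29 in rodenticide-negative replicate 8 to 2.48 in rodenticide-positive replicate 20. Both followed gene number, with r of 0.567 and 0.649 and rho of 0.552 and 0.614.

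Groups 4 and 5 had weaker relations to group 1 (rho = 0.0896 and -0.103). Group 4, with 11 IDs of low read abundance (median 8.01 CPM), had 1 extreme library. Its value was 4.05 in rodenticide-positive replicate 7, which was the highest library for all 11 IDs, while the next library had 2.05 and the lowest -1.48. Without that library the SD of the group's value fell from 0.94 to 0.77, and 7 of the 11 IDs would still have passed the limit for membership. Group 5, with 10 IDs, had the tightest co-variation of the 7 (median rho 0.777) and ran from -2.23 in rodenticide-positive replicate 2 to 2.68 in rodenticide-negative replicate 14, which was the highest library for all 10. The rho of group 4 with gene number was 0.229 and that of group 5 was -0.032. Group 5 kept its co-variation in the authors' normalized table (median rho 0.835) and in their regressed table (0.852).

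**Figure D3:**
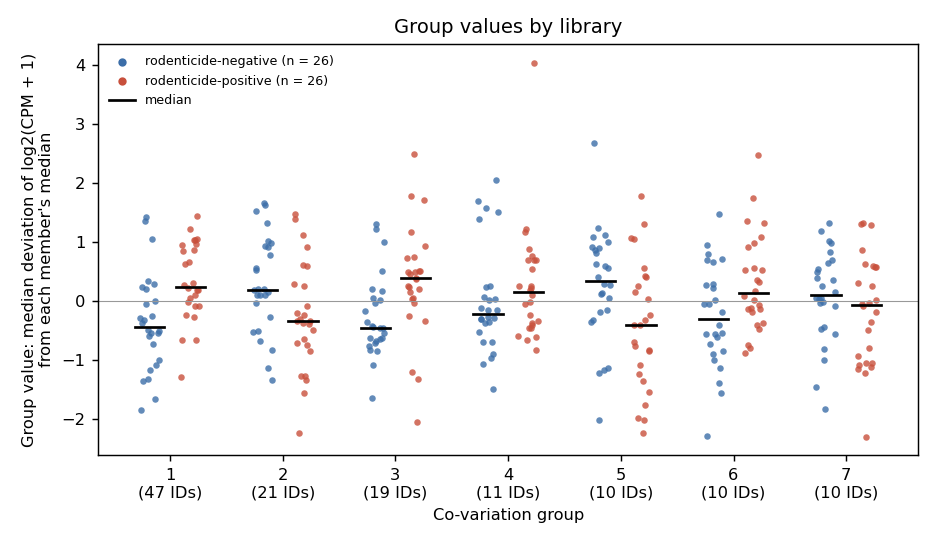
Group value (median deviation of log2(CPM + 1) from each member's median, vertical) in each of 26 rodenticide-negative (blue) and 26 rodenticide-positive (red) libraries for the 7 co-variation groups, with the median of each as a bar and points spread sideways at random. The 2 sets of libraries overlap in every group, and rodenticide-positive replicate 7 stands alone at 4.05 in group 4.

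The comparison the study was designed for is that between samples with and without detected rodenticides. It was fitted on all 12024 IDs that passed a filter on low counts with edgeR's quasi-likelihood test and Benjamini-Hochberg adjustment, and all 200 members were among them. The ranking of members by SD ignored the rodenticide labels. The leaving out of 6 IDs as shifted with rodenticide detection did not, so members could not include them. On the CPM scale used above, the mean log2 level of the eligible IDs was higher in rodenticide-positive samples by a median of 0.13, while with the TMM factors of the test the median change was -0.01 over all IDs tested. Changes are given on the second scale, and CPM values of the first carry that shift.

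A single member passed an adjusted p of 0.05, which is 0.5% of 200 against 0.0832% of all IDs tested. At an adjusted p under 0.10 there were 14 members (7.0%, against 3.8% of all), of which 10 were higher (against 2.64%) and 4 lower (against 1.16%). At an unadjusted p under 0.05 there were 72 members, or 36.0%, against 21.9% of all IDs tested, 48 of them higher (24%, against 12%) and 24 lower (12%, against 9.94%). The estimate lay above 0 in 114 members (57.0%, against 48.1% of all). The members' changes were large and imprecise together: the median size was 0.43 and the median standard error 0.26 on the log2 scale, against 0.16 and 0.13 over all IDs tested. The SD that chose the members includes any difference between the groups, so larger sizes and errors than over all IDs are built in. The shares of members set beside all IDs, here and below, are descriptions. When gene number entered the model, 0 members passed an adjusted p of 0.05 (0.0% of all; edgeR) and 27 had an unadjusted p under 0.05 (13.5%, against 3.06%). DESeq2 passed 10 members (5.0%, against 1.5%).

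The member that passed was ENSFCAG00000023786, which belongs to group 6. In rodenticide-negative samples it ran from 1.2 to 27.8 CPM with a median of 7.62 CPM, and in rodenticide-positive samples from 4.11 to 149 CPM with a median of 15.8 CPM. The groups overlapped, and the median of the negative group was exceeded by 23 of 26 positive libraries. It rose by 1.23 ± 0.274 on the log2 scale (SE, n = 26 each; edgeR adjusted p = 0.0485). The highest value, in rodenticide-positive replicate 20, was over 3 times the next one of 45 CPM, and without that library the change was 0.9 (edgeR adjusted p = 0.0794). Of 52 fits that each left out 1 library, 17 kept the call and 35 did not, and over 65 alternatives of all kinds the adjusted p ran from 0.00694 to 0.9998.

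Of the members with lower estimates, ENSFCAG00000015276 of group 5 had the smallest p. It ran from 11.3 to 174 CPM in rodenticide-negative samples, with a median of 58.9 CPM, and from 8.94 to 113 CPM in rodenticide-positive samples, with a median of 25.7 CPM. The median of the negative group was exceeded by 5 of 26 positive libraries. The estimate was -0.84 ± 0.261 (SE, n = 26 each; edgeR adjusted p = 0.091), which did not pass, and over the 65 alternatives it ran from -1.09 to -0.74 with adjusted p from 0.0329 to 0.9998.

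ENSFCAG00000022089 of group 3 had the largest SD (1.67) among members with a higher estimate. It ran from 4.39 to 200.7 CPM in rodenticide-negative samples (median 14.1 CPM) and from 1.93 to 256 CPM in rodenticide-positive samples (median 29.7 CPM), so the rodenticide-positive range enclosed the other. Its change of 0.84 ± 0.458 did not pass (SE, n = 26 each; edgeR adjusted p = 0.265). For ENSFCAG00000029190, the ID with separate low and high libraries, values ran from 1.05 to 185 CPM in rodenticide-negative samples (median 39.2 CPM) and from 1.14 to 158 CPM in rodenticide-positive samples (median 48.2 CPM). Its change was -0.05 ± 0.457 (SE, n = 26 each; edgeR adjusted p = 0.955), with the sign depending on the scaling (0.01 with upper-quartile factors).

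**Figure D4:**
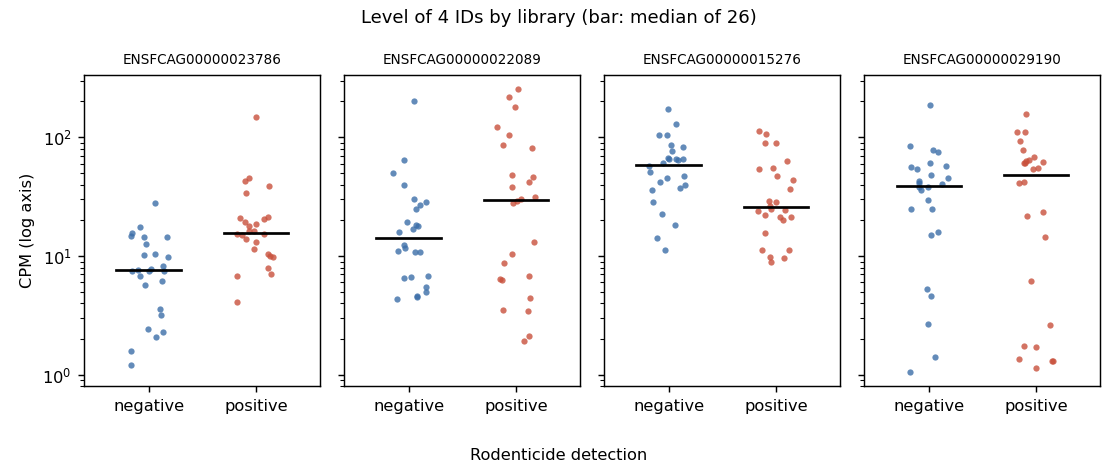
CPM (vertical, log axis) of the 4 named IDs in each of 26 rodenticide-negative (blue) and 26 rodenticide-positive (red) libraries, with the median as a bar and points spread sideways at random. All 4 IDs overlap between the groups, the median of ENSFCAG00000023786 is 7.62 against 15.8 CPM, and ENSFCAG00000029190 shows a set of 13 low libraries drawn from both.

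The members at an unadjusted p under 0.05 were spread unevenly over the co-variation groups, which share libraries and so do not count as independent. Group 1 had 25 of 47 IDs higher and 0 lower, with a median change of 0.46. Group 3 had 12 of 19 higher and 0 lower, with a median of 0.56, and 7 of 19 without rodenticide-positive replicate 6. Group 2 had 11 of 21 lower and 0 higher, with a median of -0.67. In group 6, 4 of 10 were higher and 0 lower with a median of 0.44, and 2 of 10 were higher without rodenticide-positive replicate 20. Group 7 had 0 of 10 in either direction (edgeR; 0 at an adjusted p of 0.05, and 1 of 10 lower at an unadjusted p under 0.05 in DESeq2). Of the 72 members in no group, 4 were higher and 5 lower.

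Group 5 had 8 of 10 IDs lower and 0 higher, with a median change of -0.78. Its value ran from -2.02 to 2.68 in rodenticide-negative samples (median 0.35) and from -2.23 to 1.78 in rodenticide-positive samples (median -0.4), so the ranges overlapped, and 7 of 26 positive libraries exceeded the median of the negative group. When gene number entered the model, the count in group 5 was again 8 of 10. It was 2 of 47 in group 1, 0 of 21 in group 2 and 3 of 19 in group 3. In group 4 the count was then 5 of 11 higher, against 3 of 11 without that covariate, and the median change was 0.71. Gene number follows the values of groups 1, 2 and 3 (r = 0.92, -0.682 and 0.567) and not that of group 5 (r = -0.042). The contrast of group 5 with groups 1, 2 and 3 was thus largely built in. Without rodenticide-negative replicate 14 and without that covariate, 6 of 10 IDs in group 5 were lower. None of the 10 IDs of group 5 passed an adjusted p of 0.05 in edgeR, where 3 were under 0.10, and 2 passed in DESeq2.

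In group 4 the direction rested on 1 library. The estimates of all 11 IDs lay above 0, with a median of 0.49, and 3 were at an unadjusted p under 0.05. Without rodenticide-positive replicate 7 the median was -0.3, 3 of 11 estimates lay above 0 and 0 of 11 had an unadjusted p under 0.05 (edgeR). DESeq2 on all 52 libraries gave a median of -0.14.

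**Figure D5:**
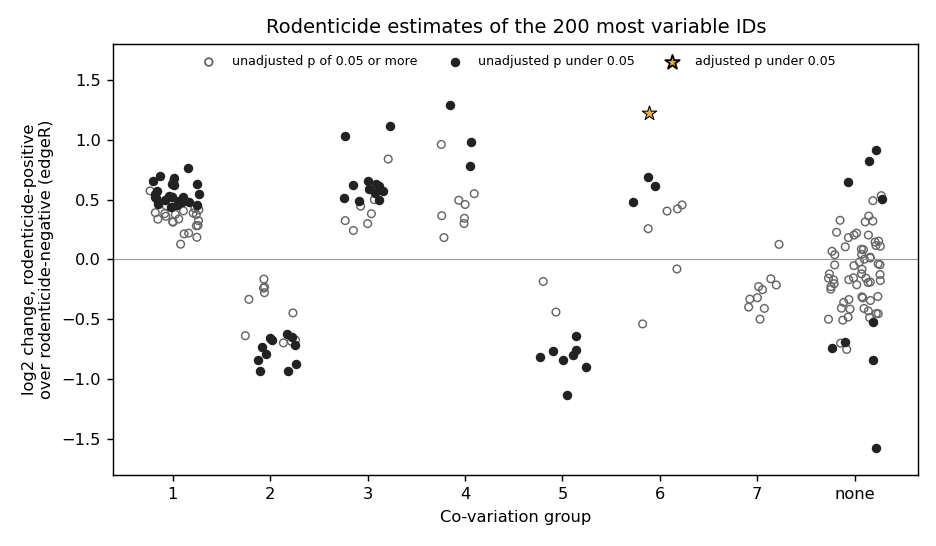
Log2 change of the 200 members, rodenticide-positive over rodenticide-negative (edgeR, vertical), by co-variation group, with filled points at an unadjusted p under 0.05 and a star for the single ID past an adjusted p of 0.05. Groups 1, 3 and 4 lie above 0 and groups 2 and 5 below it, and the members outside the groups lie around 0.

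The spread itself was compared between samples with and without rodenticides. Over the members, the median SD was 0.98 among the 26 positive and 0.97 among the 26 negative libraries, and 105 of 200 members (52.5%) had the larger SD in rodenticide-positive samples. Among the other eligible IDs the medians were 0.42 and 0.46, and 32.9% had the larger SD in rodenticide-positive samples. A limma test of the absolute deviations from the group median passed 0 of 200 members (0.0% of all 12024 IDs) at an adjusted p of 0.05. At an unadjusted p under 0.05 there were 6 members, or 3.0% against 4.43% of all. Spread was larger in positive libraries in 2 of them (0.64% of all IDs) and smaller in 4 (3.79% of all IDs). A count of 0 does not show equal spread.

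The authors' regressed table removed 3 covariate columns that are not labelled. They can be recovered from the difference between the normalized and the regressed table as a factor with 3 levels, here called A, B and C in order of size, plus 1 numeric variable. Of the 24 libraries at level A, 13 were positive and 11 negative. Level B had 17 (9 and 8) and level C had 11 (4 and 7). Library sizes ran from 8338574 to 22898827 counts at level A, from 3405189 to 11692042 at level B and from 9539898 to 20945470 at level C. Contrasts between levels therefore carry a difference in depth, whose part in them was not tested on its own. Members stayed variable inside each level, where the median SD was 0.98 for A, 1.05 for B and 0.93 for C. The regression removed a median of 6.18% of a member's variance (at most 64.7%, and over 50% in 5 members), against 12.7% for the other eligible IDs. A test of the 3 levels passed 10 of 200 members at an adjusted p of 0.05 (5.0%, against 6.21% of 12565 IDs tested; edgeR), and 6 of these 10 belonged to group 1. With rodenticide detection and log2 library size as covariates, 1 member passed, and no share of all IDs is given for that fit. At an unadjusted p under 0.05 the test without covariates had 40 members (20%, against 19.7%).

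The rodenticide comparison was repeated inside each level. In level A, 85 of 200 members passed an adjusted p of 0.05 (42.5%, against 24.7% of 12167 IDs; edgeR). Of these, 59 rose (against 13.4% of all IDs) and 26 fell (against 11.4%), and 117 members had an unadjusted p under 0.05 (58.5%, against 38.6%). Of the 85 members past the adjusted threshold, group 1 gave 34, group 3 gave 16, group 2 gave 12, group 7 gave 6 and group 6 gave 5. In level B, 0 members passed (0.0% of 10883 IDs; edgeR, the sole tool run within levels) and 20 had an unadjusted p under 0.05 (10%, against 2.22%), 16 of them lower (against 1.42%). In level C, 0 members passed (0.0% of 12370 IDs; edgeR) and 4 had an unadjusted p under 0.05 (2.0%, against 1.21%). Gene number moved with these groups: its medians in positive and negative libraries were 13103 and 12722 at level A, 12790 and 12620 at level B, and 12924 and 12826 at level C. Its part in the members' changes within levels was not tested.

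Of the 85 members called in level A, 62 had an estimate of the same sign in level B and 33 in level C. Many of the 85 belong to groups that move together, and no share over all IDs is given beside these counts. They are therefore not read as a result about the members. Group 3 had a median change of 1.14 for A, 0.24 for B and -0.44 for C. Group 1 had medians of 0.88, 0.3 and -0.16 in the same order. Group 5 had medians of -0.72, -1.1 and -0.37, and 7 of its 10 IDs had an unadjusted p under 0.05 in level B against 1 in level A. A test of the difference between level A and levels B and C passed 0 members (0.0% of 12024 IDs; edgeR, the sole tool run for it), with 58 at an unadjusted p under 0.05 (29.0%, against 14.5%). These 58 included 15 of 47 IDs in group 1, 12 of 19 in group 3 and 9 of 11 in group 4, whose extreme library, rodenticide-positive replicate 7, lies in level A, and 0 of 10 in group 5.

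Among the named IDs, ENSFCAG00000023786 had estimates of 1.65 ± 0.45, 0.84 ± 0.378 and 0.7 ± 0.442 (SE) at levels A, B and C, all higher in positive libraries. The first passed (edgeR adjusted p = 0.0125) and the others did not (edgeR adjusted p = 0.992 and 0.9998). The difference of 0.87 ± 0.543 between level A and the other levels did not pass either (edgeR adjusted p = 0.438). The estimates of ENSFCAG00000015276 were -0.74 ± 0.403, -1.09 ± 0.352 and -0.86 ± 0.571 (SE) at levels A, B and C. Those of ENSFCAG00000022089 were 1.7 ± 0.548, 0.03 ± 0.688 and -1.26 ± 1.12, and the difference of 2.14 ± 0.909 between level A and the others did not pass (edgeR adjusted p = 0.317). For ENSFCAG00000029190 they were 0.13 ± 0.585, -0.24 ± 0.746 and -0.79 ± 1.04.

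The authors' normalized table, made by a method that is not labelled, held all 200 members. Their median SD was 0.98 there and 0.93 after the authors' regression, against 0.36 and 0.33 for the other eligible IDs. Of the 200 eligible IDs with the largest SD, 149 in the normalized table and 144 in the regressed table were members, which come from the same libraries. Chosen in 1 group of samples alone from the same eligible IDs, the 200 IDs of largest SD included 149 members for the positive and 147 for the negative libraries. With limma, 5 members passed in the normalized table (2.5%, against 1.23% of 12332 IDs), and all 5 rose (against 1.01%). After regression 20 members passed (10%, against 5.46%), of which 17 rose (against 4.42%) and 3 fell (against 1.04%). The degrees of freedom that the regression used were not deducted in this last test, which makes its p-values too small.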

How the data were processed

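The authors deposited raw counts per gene ID for 52 libraries, each ID with its mean length and GC fraction, and 2 tables on a log2 scale, one normalized and one of regressed residuals with mean 0 per ID. The deposited GC fraction was multiplied into a percent. HTSeq, edgeR, limma, TopHat2 2.1.0 and Trim Galore 0.3.1 appear, with no role, per the submitters' processing notes. The genome build, the annotation, the strand setting and the normalization were not given in the sources used here. Members and lists were chosen with earlier results of these data known.

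Membership, SD and co-variation used log2(CPM + 1) from counts without the 2 most abundant IDs. Tests used all counts in edgeR 4.0.16 (R 4.3.3; TMM, filterByExpr, robust glmQLFit), with standard errors from the F statistic. Limma 3.58.1 (trend, robust) served tables of log2 values and absolute deviations of log2 CPM (prior count 2), and DESeq2 1.42.0 was an alternative. The rest ran in Python 3.11.15 (pandas 2.3.3, numpy 2.4.6, scipy 1.17.1). The edgeR tests of rodenticide detection and of the levels and the limma test of spread were tested on simulated data. Named IDs are, of members with higher and with lower estimates, whichever has the lowest p and whichever has the greatest SD. The planned cell type markers need gene names and were not used. The recovered levels were split after the tables had been seen.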

Additional observations from a re-analysis of the deposited data

How the results depend on the processing

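Past an adjusted p of 0.05, the count of members was 1 in edgeR with TMM factors. It was 0 with upper-quartile factors, without the 2 most abundant IDs, with no filter, with the recovered covariates, with log2 library size or with gene number as covariate, and without the 3 libraries of over 20% (added after seeing the data), 10 in DESeq2, and 5 and 20 in limma on the normalized and regressed tables. It was 85, 0 and 0 in levels A, B and C alone (also added). When each library was left out it was 0 to 18, highest without rodenticide-negative replicate 20. No share of all IDs is given for those omissions, so they are not read as a result about the members. At an unadjusted p under 0.05 the 72 members became 75 without those 3 libraries and 27 with gene number as covariate. They became 117, 20 and 4 in levels A, B and C, and 60 to 80 when each library was left out. With the recovered covariates the 72 became 71, and 39 members lay under an adjusted p of 0.10, against 14 without them (edgeR). No share of all IDs is given for that fit. The change of ENSFCAG00000029190 turned to 0.0104 with upper-quartile factors, 0.0153 with gene number as covariate, 0.24 without the 3 libraries and 0.13 in level A, and ran from -0.199 to 0.205 when each library was left out. That of ENSFCAG00000022089 was -1.26 in level C. The members that differed between levels fell from 10 to 1 with rodenticide detection and log2 library size as covariates, a fit given without its share of all IDs. Of the 200 members, 109 were chosen again with at least 1 CPM in 26 of 52 libraries and 83 with 5 CPM in all. From the same eligible IDs, 183 (without rodenticide-negative replicate 9) to 199 were chosen again when each library was left out. The largest co-variation group had 47 IDs, and 23 on TMM-scaled totals (added). By the rule itself, a member under 5 CPM in some library could not be chosen again at 5 CPM in all. The causes of these shifts were otherwise not tested. No paired analysis was made because the labels do not pair samples, and the replicate numbers only count libraries within each group. Members with under 10 counts in a library are limited by depth there.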

Other observations

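Besides ENSFCAG00000029190 and ENSFCAG00000022089, 5 other members had an SD of at least 1.5, singled out after their values were seen and left without an ID because no name is paired with it. The member ranked 2 by SD (1.77) had the second largest gap between neighbouring libraries, 0.68 on the log2 scale, with 24 libraries below it and a range from 1.21 to 126 CPM, and it joined no co-variation group of at least 10. The members ranked 3, 6 and 7 belonged to group 2. That ranked 6 was the member of highest read abundance, from 58.7 to 4709 CPM with a median of 914 CPM. The member ranked 5 ran from 7.71 to 755 CPM, joined no group of at least 10 and had the lowest rodenticide estimate of all members, -1.58 ± 0.496 on the log2 scale (SE, n = 26 each; edgeR adjusted p = 0.0911).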
